A study of Mus musculus with 65 samples.

Results

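A group of 40 mouse genes that build ribosomes was described in neural stem cells of old and of young mice. The cells were kept as stem cells or left that state, with or without induction of the reprogramming factors. The genes, and the lists set beside them, were chosen by symbol with earlier results of these data known. Each symbol of the 40 matched 1 row of the count table through the GENCODE M21 annotation, so that 40 of 31057 rows are described. They comprise 5 genes of RNA polymerase I and its factors, 7 of the small nucleolar ribonucleoproteins (snoRNPs), 5 nucleolar organisers, 10 of the small subunit pathway, 12 of the large subunit pathway, and the polyamine enzyme Srm. All 40 passed the low-count filter in each of 25 comparisons, and the lowest count of any of them in any library was 361, for Rrp12.

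Primary neural stem cells came from the subventricular zone of adult mice of both sexes with the iOSKM genotype, in which doxycycline induces Oct4, Sox2, Klf4 and Myc, and all animals of both ages carried it. Poly(A) RNA was sequenced from 65 libraries in 15 groups, from 4 old mice of 25 months and 5 young mice of 3 to 4 months. Libraries from stem cell medium, which holds EGF and bFGF, are called NSC, and those from cells that lost both factors by a change of medium, made 18 h after plating, are called differentiation libraries. The smallest library held 56.5M counts, the median one 86.7M and the largest 116.8M. With doxycycline at 2 µg per ml, old cells gave NSC libraries at 6, 18 and 48 h and differentiation libraries at 6, 18 and 48 h, and young cells gave NSC libraries at 18 h. Without doxycycline, both ages gave NSC libraries at 18 h and differentiation libraries at 6, 18 and 48 h. Every old group has 4 libraries and every young group 5, each library of a group coming from a different animal, and the same animals recur across the groups of their age. No untreated NSC group at 6 or 48 h was analysed here, and the labels do not say from which event the NSC times count. The change of medium and the hours that passed with it therefore cannot be told apart when differentiation libraries are set against NSC at 18 h. In untreated NSC libraries of both ages all 11 stem cell and astrocyte markers averaged at least 1 CPM (counts scaled to a common library size with TMM factors), whereas the microglial genes Cx3cr1 and C1qa, the endothelial gene Cldn5 and the fibroblast genes Dcn and Lum stayed under 0.1 CPM in every library. Other markers of those cells were not absent: in old and young untreated NSC the microglial list summed to 10.9 and 11.2 CPM (2 of 6 markers at 1 CPM or more), the endothelial list to 3.69 and 3.83 CPM (1 and 2 of 5), and the mural and fibroblast list to 40.02 and 54.9 CPM (1 of 7). Lists of the neural lineages stood higher in the same libraries. The oligodendrocyte lineage list summed to 2700 and 2642 CPM, and the neuroblast and neuron list to 1038 and 1032 CPM (7 of 10 markers each). Pou5f1, which encodes Oct4, was at 0.404 ± 0.131 CPM in treated old NSC at 18 h, against 0.161 ± 0.0591 CPM in untreated ones (SD, n = 4 each), and at 0.791 ± 0.356 against 0.207 ± 0.136 CPM in young NSC (n = 5 each). In bulk RNA of this kind, fewer cells of a type and less RNA per cell cannot be told apart.

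Ribosomes are made in the nucleolus, where RNA polymerase I copies the ribosomal DNA into a long precursor. The snoRNPs modify that precursor, the small subunit processome and the large subunit factors cut and fold it around the ribosomal proteins, and organisers such as nucleolin and nucleophosmin hold the nucleolus together. The pathway takes a large share of the energy of a growing cell, Myc is known to drive many of its genes, and in the subventricular zone high protein synthesis is known to mark the passage of stem cells into proliferating progenitors.

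Promoter windows of 300 bases, from 250 bases before to 50 bases after the RefSeq start (build GRCm38.p6), were given for 33 of the 40 genes. Bop1, Fbl, Npm1, Rrp12, Rrs1, Srm and Tcof1 had none. Because the genes moved together, these windows were searched on both strands for the palindromic E-box CACGTG, which Myc family proteins are known to bind, and for the ETS core CCGGAAG. The E-box stood in 6 of 33 genes (18.2%), against 2187 of 27025 genes with a window (8.09%). The ETS core stood in 11 of 33 (33.3%), against 2683 of 27025 (9.93%). The 27025 genes were not selected by their level in these cells, whereas all members passed the low-count filter. A share over expressed genes was not computed. By their letters the motifs cannot overlap each other. Of the 6 genes with the E-box, Nop2, Ltv1 and Wdr43 were among the 12 members that fell furthest by 6 h of differentiation in old cells and Pes1 among the 4 that fell least, so their windows are shown 5′ to 3′ on the strand of the gene, with every E-box and ETS core in capitals.
Nop2, GRCm38.p6, chr6:125131633-125131932, plus strand: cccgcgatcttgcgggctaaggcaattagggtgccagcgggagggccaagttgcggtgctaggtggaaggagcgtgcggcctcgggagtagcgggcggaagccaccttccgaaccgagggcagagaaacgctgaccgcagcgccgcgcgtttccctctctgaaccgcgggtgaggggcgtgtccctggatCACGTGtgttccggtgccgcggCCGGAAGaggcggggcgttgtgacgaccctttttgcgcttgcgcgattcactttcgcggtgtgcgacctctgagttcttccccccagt
Ltv1, GRCm38.p6, chr10:13193088-13193387, minus strand: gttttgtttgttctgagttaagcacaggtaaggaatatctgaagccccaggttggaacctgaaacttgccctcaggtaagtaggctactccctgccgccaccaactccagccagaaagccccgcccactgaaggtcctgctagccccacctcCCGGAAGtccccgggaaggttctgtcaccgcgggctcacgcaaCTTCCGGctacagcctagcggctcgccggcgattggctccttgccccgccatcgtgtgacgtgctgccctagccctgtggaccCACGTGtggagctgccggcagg
Wdr43, GRCm38.p6, chr17:71615965-71616264, plus strand: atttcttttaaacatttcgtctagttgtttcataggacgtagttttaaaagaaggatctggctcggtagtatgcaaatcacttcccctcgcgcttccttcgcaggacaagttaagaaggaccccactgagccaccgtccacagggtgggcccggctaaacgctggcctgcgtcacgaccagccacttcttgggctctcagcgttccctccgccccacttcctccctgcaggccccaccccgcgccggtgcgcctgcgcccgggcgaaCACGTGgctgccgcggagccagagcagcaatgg
Pes1, GRCm38.p6, chr11:3963725-3964024, plus strand: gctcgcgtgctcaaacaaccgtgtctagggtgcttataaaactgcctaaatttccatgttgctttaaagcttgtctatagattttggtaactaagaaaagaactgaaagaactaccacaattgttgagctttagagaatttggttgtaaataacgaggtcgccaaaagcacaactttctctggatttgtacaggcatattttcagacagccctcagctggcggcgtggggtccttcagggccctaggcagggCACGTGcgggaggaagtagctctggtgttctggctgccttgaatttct
Nop2 methylates large subunit RNA, Ltv1 escorts the small subunit out of the nucleus, Wdr43 belongs to the small subunit processome, and Pes1 is the scaffold of the PeBoW complex that processes large subunit RNA. At 6 h of differentiation the median log2 fold change was -1.93 in old cells for the 6 genes with the E-box and -1.66 for the 27 without it, and -1.90 and -1.65 in young cells. For the ETS core it was -1.66 in 11 genes with it and -1.62 in 22 without it in old cells. A match of letters is a description only, and binding was not measured.

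The main event was a fall of the whole group within 6 h of differentiation. Their summed level was 2104 ± 49.4 CPM at 6 h of differentiation and 5259 ± 214 CPM in NSC at 18 h in old cells (n = 4 each), and 2038 ± 116 against 4939 ± 109 CPM in young cells (n = 5 each). All 40 genes were lower at an adjusted p under 0.05 in edgeR in both ages, where 37.4% of 16972 tested genes were lower in old cells and 36.5% of 16949 in young cells. The median log2 fold change of the 40 was -1.68 in old cells and -1.65 in young cells, against 0.02 and 0.03 over all genes tested. The plot of all 40 genes by group shows the drop as a boundary between NSC and differentiation columns for most genes, with Ubtf an exception.

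**Figure D1:**
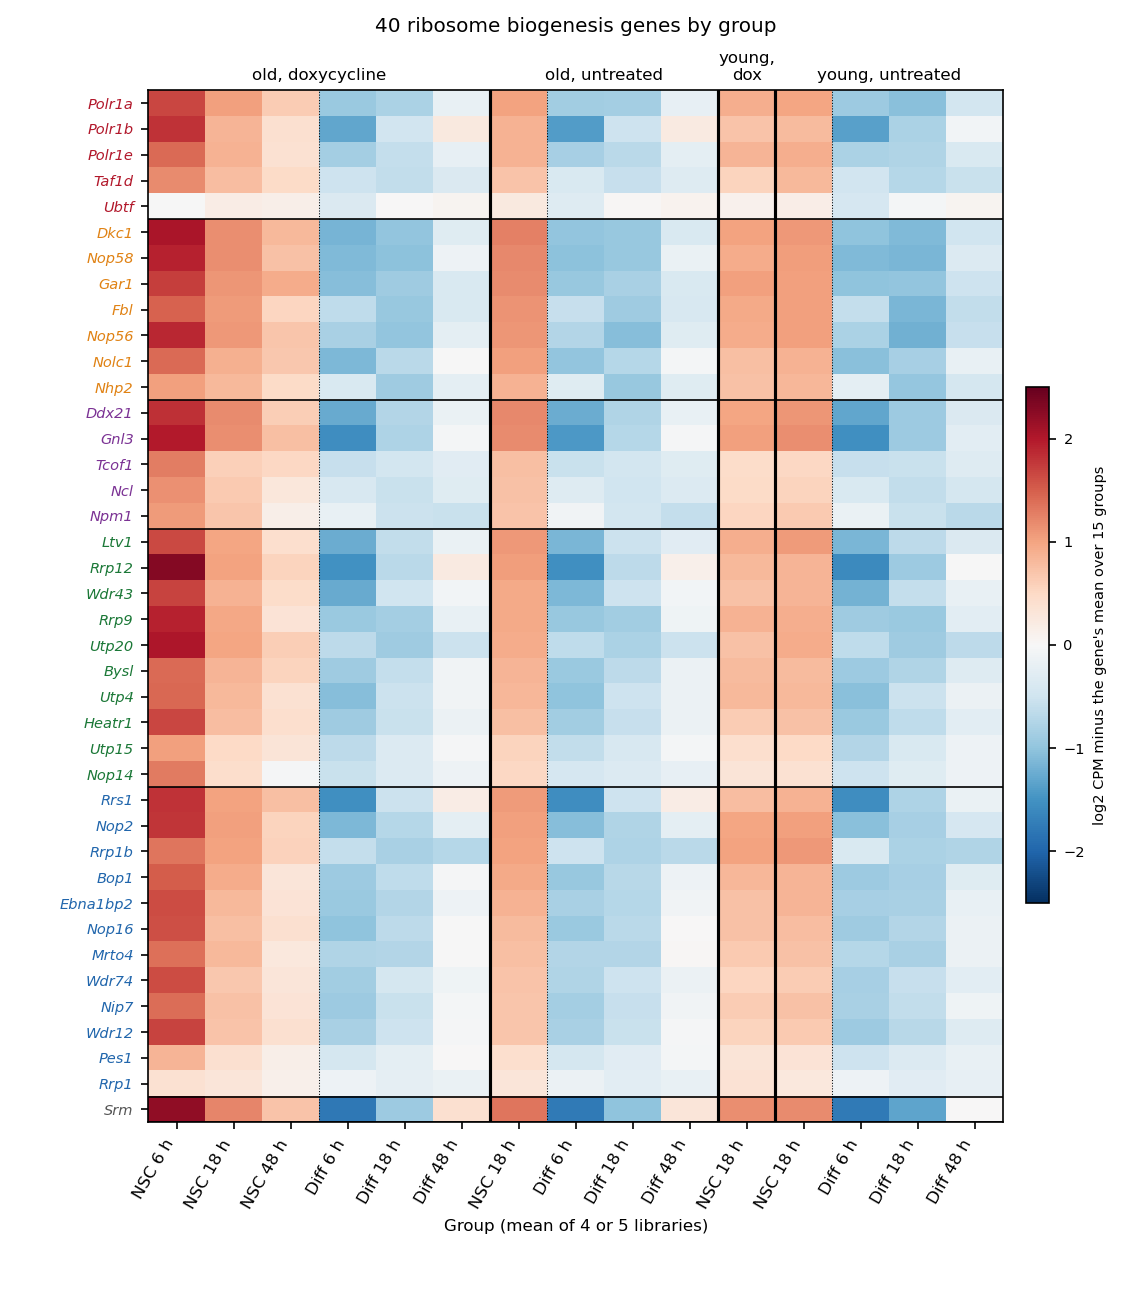
Level of each of 40 genes (rows, gene names coloured by role, in the order RNA polymerase I, snoRNP, nucleolar organisers, small subunit, large subunit, Srm) in each of 15 groups (columns). Colour gives the mean log2 CPM of 4 or 5 libraries minus the gene's mean over the groups. NSC columns are mostly red and differentiation columns mostly blue, the deepest red stands at NSC 6 h with doxycycline, and Ubtf and Rrp1 change least.

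Srm, the spermidine synthase of polyamine production, fell furthest. It lies on chromosome 4, from 148591503 to 148594993 on the plus strand (GRCm38, GENCODE M21), and its exons overlap no other annotated gene. Its levels at 6 h of differentiation were 15.1, 11.9, 14.6 and 13.2 CPM in the 4 old animals, against 113, 120, 116 and 121 CPM in their NSC libraries. In the 5 young animals they were 12.2, 12.6, 18.3, 10.3 and 14.3 CPM, against 100, 109, 104, 107 and 107 CPM. The groups lay far apart in both ages. The log2 fold change was -3.07 ± 0.07 (SE) in old cells (adjusted p = 2.03e-11) and -2.93 ± 0.13 in young cells (adjusted p = 1.45e-09), which left 11.7% and 12.9% of the NSC level.

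Among the nucleolar organisers, Gnl3, the GTP-binding nucleostemin known from neural stem cells, was at 12.7, 13.7, 14.3 and 14.5 CPM at 6 h in old cells, against 84.5, 87.4, 80.1 and 90.5 CPM in NSC. It fell by 2.61 ± 0.05 on the log2 scale in old cells and by 2.66 ± 0.08 in young cells (adjusted p = 5.27e-12 and 1.63e-11). The helicase gene Ddx21, whose product senses the state of polymerase I and II, fell by 2.40 and 2.36. The abundant organisers changed less. Ncl, encoding nucleolin, fell by 1.01 and 0.91, and Npm1, encoding nucleophosmin, by 0.77 and 0.78. Npm1 had the highest level of the 40 per kilobase of the feature length deposited with the counts. It was at 281 ± 12.1 CPM per kb in old NSC, ahead of Ncl at 104 ± 5.24. That length, 2665 bases for Npm1 and 10188 for Ncl, need not be the length of a transcript, and the order rests on it. Without division by length, Ncl lay above Npm1 in each of these libraries. Processed copies of Npm1 are known in mammalian genomes, so its count may lack reads that match more than 1 place.

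The polymerase I subunits fell further than the factors Taf1d and Ubtf. Polr1b, the second largest subunit, was at 8.004, 8.26, 9.14 and 8.63 CPM at 6 h in old cells, against 40.4, 39.99, 38.0 and 45.8 CPM in NSC, a log2 fold change of -2.24 ± 0.07 (adjusted p = 6.51e-11; young -2.11 ± 0.08, adjusted p = 4.11e-11). The largest subunit, Polr1a, fell by 1.85 in old and 1.87 in young cells, and Polr1e by 1.66 and 1.67. Taf1d, a subunit of the promoter selectivity factor SL1, fell by 1.06 and 1.25. Ubtf, which coats the ribosomal genes and keeps them open, stood at 131, 139, 131 and 139 CPM in old cells, against 201, 204, 192 and 209 CPM in NSC. It fell by only 0.55 in both ages, the second smallest change of the 40 after Rrp1 (-0.43 in old and -0.35 in young cells).

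In the pathway of the small subunit, Rrp12, an export factor of pre-ribosomes, was at 5.79, 5.40, 5.83 and 6.29 CPM in old cells, against 35.7, 31.8, 35.8 and 36.4 CPM in NSC. It fell by 2.55 ± 0.07 in old and 2.41 ± 0.10 in young cells (adjusted p = 2.36e-11 and 1.04e-10), and Ltv1 by 2.19 and 2.16. The processome genes Wdr43, Heatr1 and Utp20 fell by 2.04, 1.58 and 1.53 in old cells. For the large subunit, Rrs1, which brings the 5S particle into the early large subunit, was at 13.1, 13.5, 12.6 and 14.4 CPM, against 81.2, 80.8, 76.1 and 91.3 CPM in NSC, a fall of 2.59 ± 0.06 in old and 2.38 ± 0.05 in young cells (adjusted p = 1.27e-11 and 8.11e-13). The core genes of the box C/D snoRNPs fell by 2.21 (Nop58), 1.81 (Nop56) and 1.66 (Fbl, the RNA methyltransferase) in old cells. Those of the box H/ACA particles fell by 2.21 (Dkc1, the pseudouridine synthase), 2.11 (Gar1) and 1.15 (Nhp2). Exons of Nop56, Nop58, Ncl, Gnl3 and Taf1d share bases on the same strand with annotated small RNAs, among them snoRNAs, which a poly(A) library is not made to hold.

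**Figure D2:**
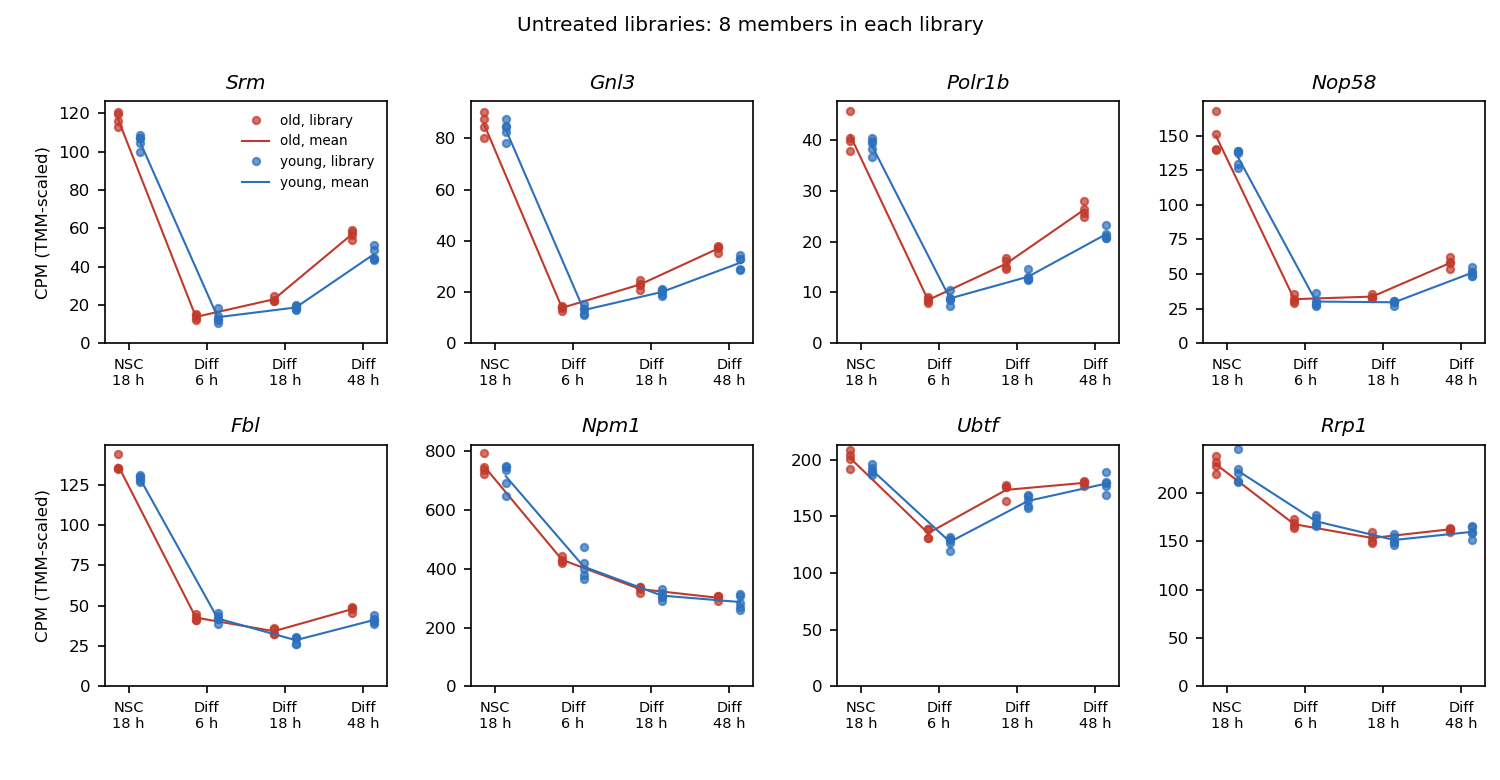
CPM of 8 genes in each untreated library (points) with the group means (lines), for old cells (red, left of each pair) and young cells (blue) at NSC 18 h and at 6, 18 and 48 h of differentiation. Srm, Gnl3, Polr1b and Nop58 drop and then climb, Fbl and Npm1 keep falling to 18 h, and Ubtf and Rrp1 move least.

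Between 6 and 18 h of differentiation the group split. Of the 40 genes, 21 rose and 9 fell in old cells (34.1% and 33.6% of 17064 tested genes), and 20 rose and 10 fell in young cells (34.0% and 32.4% of 17084). The share that rose is above that of all genes, and the share that fell is below it. In both ages 19 genes rose and 9 fell, and no gene rose in one age and fell in the other. Old and young animals are different mice, and over the 40 genes the log2 fold changes of both ages had a Pearson correlation of 0.967, given as a description, since genes are not independent replicates. The plot of the change in both ages shows the genes that rose mostly above the line of equal change.

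The largest rise was that of Rrs1. It was at 26.3, 25.2, 28.8 and 30.3 CPM at 18 h in old cells, all above the 12.6 to 14.4 CPM at 6 h, and rose by 1.04 ± 0.07 in old and 0.77 ± 0.06 in young cells (adjusted p = 1.06e-08 and 2.21e-08). Polr1b rose by 0.88 and 0.57, Rrp12 by 0.88 and 0.67, Gnl3 by 0.73 and 0.63, and Srm by 0.74 and 0.45. Young Srm libraries overlapped between 18 and 6 h. The 6 h libraries enter this step and the one before it, so the changes of both are not independent. Ubtf also rose by 0.36 in both ages. Of the 10 small subunit genes, 7 rose in old cells and 8 in young cells, and Utp20 fell in both. Of the 12 large subunit genes, 8 rose in old cells and 6 in young cells.

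Of the 7 snoRNP genes 3 fell, in both ages, and 1 rose. Nhp2, shared by all H/ACA particles, was at 26.7 ± 1.73 CPM at 18 h and 41.9 ± 2.55 CPM at 6 h in old cells, and fell by 0.65 ± 0.05 (adjusted p = 1.56e-07; young 0.73 ± 0.06, adjusted p = 2.92e-08). Fbl stood at 32.3, 32.7, 35.6 and 36.2 CPM at 18 h in old cells, against 42.9, 41.1, 41.4 and 44.9 CPM at 6 h. It fell by 0.32 ± 0.05 in old and 0.56 ± 0.06 in young cells (adjusted p = 4.45e-05 and 1.05e-06), and Nop56 by 0.34 and 0.41. Nolc1, the snoRNP chaperone, rose by 0.28 and 0.21. Nop58, Dkc1 and Gar1 did not pass, with log2 fold changes of 0.08, 0.04 and 0.14 in old cells and -0.03, -0.09 and 0.02 in young cells. Npm1 fell by 0.38 and 0.40, Ncl by 0.19 and 0.24, Rrp1b, a nucleolar partner of protein phosphatase 1, by 0.25 and 0.40, and Taf1d by 0.19 and 0.25.

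**Figure D3:**
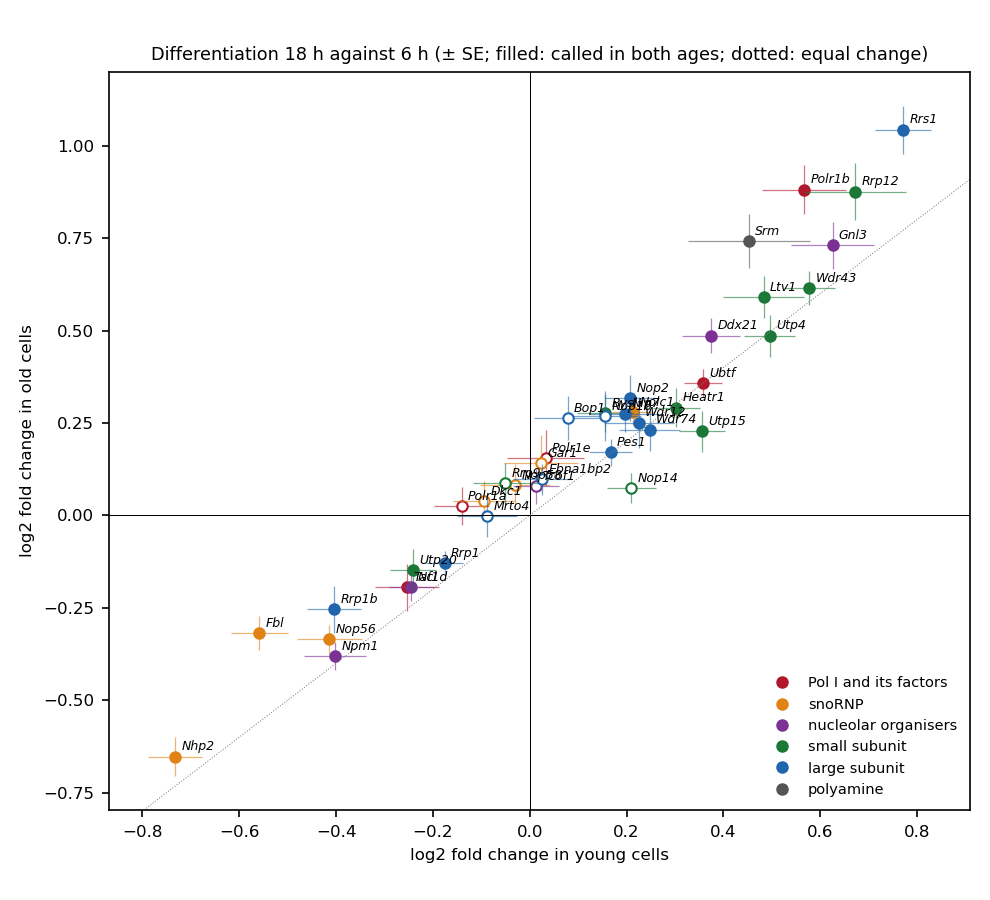
log2 fold change (± SE) of each of 40 genes at 18 h against 6 h of differentiation in old cells (vertical axis) and young cells (horizontal axis), coloured by role and filled where the gene passed in both ages. The small and large subunit genes lie mostly to the upper right, with Rrs1 at 1.04 in old and 0.77 in young cells, and the snoRNP genes Nhp2, Fbl and Nop56 to the lower left.

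From 18 to 48 h nearly the whole group rose. In old cells 36 rose and 1 fell (28% and 28.5% of 16970 tested genes), and in young cells 36 rose and none fell in the edgeR fit without animal blocks (27.7% and 29.2% of 16990; 38 members had an unadjusted p under 0.05, and DESeq2 also called none lower). The median log2 fold change of the 40 was 0.49 in old and 0.43 in young cells, against -0.0044 and -0.0111 over all genes tested. Srm again led, at 54.0, 58.0, 59.1 and 56.3 CPM at 48 h against 22.4, 22.2, 22.2 and 24.8 CPM at 18 h in old cells. It rose by 1.30 in both ages (± 0.05 SE, adjusted p = 2.55e-10 in old and 1.33e-09 in young cells). Rrp12, Nop58, Nop56, Rrp9, Polr1b and Mrto4, a placeholder for a stalk protein on the large subunit precursor, rose by 0.74 to 0.77 in old cells. All 7 snoRNP genes and all 10 small subunit genes rose in both ages. The exception was Npm1, which fell by 0.15 ± 0.04 in old cells to 302 ± 7.70 CPM, against 331 ± 8.51 CPM at 18 h (adjusted p = 0.00396). In young cells its change was -0.12, which passed only with animals as blocks (-0.13, adjusted p = 0.00928, 32.2% of tested genes lower and 30.4% higher in that fit) or without young replicate 2.

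At 48 h of differentiation the group was still well below untreated NSC at 18 h, a comparison in which medium and hours cannot be told apart. All 40 genes were lower in old cells (40.4% of 17058 tested genes) and 39 in young cells (41.1% of 16991), where Ubtf, at -0.05, did not pass. The median member stood at 48.7% of its level in NSC at 18 h in old and 47.2% in young cells, against 30.6% and 31.1% at 6 h. By role, the medians at 48 h in old cells were 56.5% for the large subunit, 50.4% for the small subunit, 49.5% for polymerase I and its factors, 43.3% for the organisers and 38.0% for the snoRNPs. Single genes ranged widely. Rrp1b was lowest, at 31.6 ± 4.56% of NSC in old cells and 27.99 ± 1.32% in young cells, and Ubtf highest, at 89.2 ± 3.06% and 93.7 ± 2.27%. In old cells with doxycycline the members summed to 2609 CPM at 48 h of differentiation. The sum was 5112 CPM in treated NSC at 18 h and 3910 CPM in treated NSC at 48 h.

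The course of the group was set beside 3 other lists. Of 93 other genes of the same pathway, 88 were lower and 2 higher at 6 h in old cells (37.4% and 38.2% of tested genes). In young cells 86 were lower and 1 higher (36.5% and 38.4%). Their median log2 fold change was -0.92 in old and -0.94 in young cells. At 18 h against 6 h 41 of the 93 rose and 16 fell in old cells (34.1% and 33.6% of tested genes). At 48 h against 18 h 66 rose and 6 fell (28% and 28.5%). Genes of the cytosolic ribosomal proteins, the cargo of the pathway, fell less than the members by 6 h, fell further later and did not turn. Of 79, 58 were lower at 6 h in old cells (37.4% of tested genes), with a median of only -0.15. Their sum was 34944 CPM at 6 h, against 38871 CPM in NSC. At 18 h 78 were lower than at 6 h (33.6% of tested genes), and 70 were lower at 48 h than at 18 h (28.5%). The summed level of 16 cycling markers was 2778 ± 317 CPM at 6 h of differentiation and 2868 ± 396 CPM in NSC in old cells, and 2519 ± 186 against 2412 ± 309 CPM in young cells. At 6 h, when all 40 members had fallen, 6 of the 16 markers were higher and 6 lower in old cells. Over all tested genes 38.2% were higher and 37.4% lower there, so the split of the markers is near that of all genes. At 18 h all 16 markers were lower than at 6 h (33.6% of tested genes in old cells). Their sum was 121 ± 4.78 CPM in old cells and 134 ± 16.8 CPM in young ones. It was 136 ± 6.08 CPM at 48 h in old cells, while the members climbed. Markers of other cells moved too. The oligodendrocyte lineage list summed to 2700, 3327, 3692 and 6015 CPM in old cells from NSC to 48 h of differentiation, and the stem cell and astrocyte list to 4851, 5136, 8854 and 10267 CPM. The neuroblast and neuron list summed to 1038, 1232, 1832 and 1377 CPM in the same groups. The share of counts in rRNA-overlapping features was 0.999, 1.35, 2.499 and 2.69% in old cells from NSC to 48 h of differentiation, and 1.51, 1.502, 1.76 and 2.59% in young cells. The part of these lists and of this share in the course of the members was not tested.

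**Figure D4:**
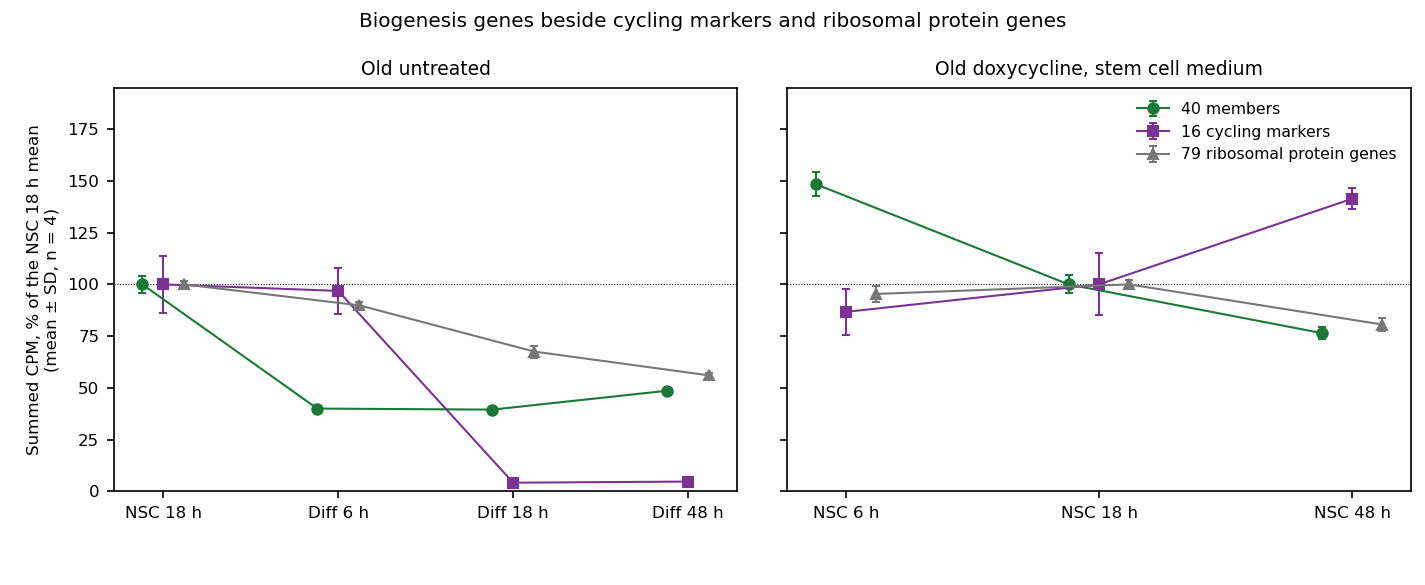
Summed CPM of the 40 genes, of 16 cycling markers and of 79 cytosolic ribosomal protein genes (mean ± SD, n = 4), as a percentage of the mean at NSC 18 h, in old untreated cells (left) and in old cells kept in stem cell medium with doxycycline (right). On the left the members stand at 40.02% at 6 h while the cycling markers are at 96.9%; on the right the members go down to 76.5% at 48 h while the cycling markers go up to 141.3%.

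In doxycycline-treated old cells that stayed in stem cell medium, the level of most members was lower at later times. No untreated NSC libraries at 6 or 48 h were analysed, so time in culture and time with doxycycline cannot be told apart here. The summed level of the 40 was 7590 ± 287 CPM at 6 h, 5112 ± 222 CPM at 18 h and 3910 ± 150 CPM at 48 h (n = 4 each). At 18 h against 6 h 38 genes were lower and 1 higher (30.7% and 30.6% of 16678 tested genes), with a median of -0.65. Rrp12 was at 33.0, 31.8, 33.8 and 36.5 CPM at 18 h, against 85.6, 75.1, 86.8 and 86.2 CPM at 6 h, and fell by 1.29 ± 0.06 (adjusted p = 5.52e-08). Utp20 fell by 1.02, Srm and Wdr12, a PeBoW subunit, by 0.96 each, and Polr1b by 0.95. Ubtf went up by 0.22 ± 0.03 (adjusted p = 1.51e-04), and Rrp1 did not pass (-0.07). At 48 h against 18 h 38 genes were again lower (26.3% of 16857) and none higher, with a median of -0.38. Ubtf and Tcof1 did not pass (-0.02 and -0.06). Rrp9 and Bop1 fell most, by 0.60 each (adjusted p = 8.92e-07 and 2.39e-07), and Ddx21 and Fbl by 0.54 and 0.50. The cycling markers moved the other way, with 11 of 16 higher at 48 h than at 18 h and none lower (26% and 26.3% of tested genes). Their sums were 3577 ± 128 CPM at 48 h and 2531 ± 378 CPM at 18 h. Of 7 mural and fibroblast markers, 1 averaged at least 1 CPM, and their sum was 140 ± 34.1, 34.97 ± 9.13 and 2.82 ± 0.31 CPM at 6, 18 and 48 h. The oligodendrocyte lineage list summed to 1388, 2660 and 2613 CPM and the stem cell and astrocyte list to 3356, 4501 and 4612 CPM at the same times. The neuroblast and neuron list summed to 615, 1012 and 961 CPM. The part of these lists in the fall was not tested.

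At the same labelled hour, with doxycycline in both arms, differentiation libraries lay below NSC by less at each later time. All 40 genes were lower at 6 h (median -2.48, 39.3% of 17014 tested genes), all 40 at 18 h (median -1.50, 40% of 17064) and 37 at 48 h (median -0.53, 37.1% of 17127). No member was higher at any of these times, where 41.4%, 41.4% and 39.8% of tested genes were. Srm was at 13.7, 12.6, 14.6 and 12.6 CPM in differentiation at 6 h, against 208, 204, 222 and 222 CPM in NSC at 6 h. Its log2 fold change was -3.96 ± 0.06 at 6 h, -2.09 ± 0.04 at 18 h and -0.26 ± 0.05 at 48 h (adjusted p = 2.32e-13, 7.76e-14 and 5.39e-04). At 48 h Rrp1b and Gar1 were still lower by 1.24 and 1.27, whereas Polr1b (-0.12), Nop14 (-0.06) and Ubtf (-0.03) did not pass.

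Set against untreated cells of the same age, medium and hour, doxycycline gave small differences. No member passed in any of the 5 matched comparisons in the edgeR fits without animal blocks, in which 0.0361%, 0.012%, 0.0294%, 0.0118% and 0.0237% of tested genes were higher in young NSC, old NSC and old differentiation at 6, 18 and 48 h, and 0%, 0.00601%, 0%, 0% and 0.00592% lower. Unadjusted p was under 0.05 for 17 members in young NSC, 4 in old NSC, and 7, 1 and 0 in old differentiation at 6, 18 and 48 h. DESeq2 called 3 lower in young NSC and none elsewhere, and edgeR without young replicate 5 called 5 there. For unadjusted p, for DESeq2 and with a replicate left out, shares over all tested genes are not given, here or in other passages. Such counts are therefore not set against all genes. Treated and untreated libraries come from the same animals, and with animals as blocks 13 members were lower in young NSC (6.74% of 16621 tested genes), 5 in old NSC (7.01% of 16652) and 3 in old differentiation at 6 h (1.98% of 17033). None was lower at 18 and 48 h of differentiation (0.394% of 16986 and 2.02% of 16889, with 4 and 3 members at an unadjusted p under 0.05), and none was higher in these fits (6.85% and 4.18% of tested genes in young and old NSC, and 1.69%, 0.489% and 2.13% at 6, 18 and 48 h).

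The blocked changes were small. In young NSC Taf1d was at 37.0, 37.1, 36.9, 41.5 and 34.0 CPM with doxycycline, against 42.1, 43.1, 50.9, 48.7 and 36.3 CPM in the untreated libraries of the same animals. The groups overlapped, while each animal was lower with doxycycline, and the blocked log2 fold change was -0.24 ± 0.05 (adjusted p = 0.00341). Utp20 fell by 0.18 ± 0.04 and Gnl3 by 0.14 ± 0.03 (adjusted p = 0.00378 and 0.00485), each in 5 of 5 animals, and Ltv1 by 0.16. In old NSC the members that fell were Nolc1 (-0.13 ± 0.02), Tcof1, the treacle gene that recruits the polymerase (-0.13 ± 0.03), Srm (-0.10 ± 0.02), Dkc1 (-0.09) and Ncl (-0.06). Each of these was lower in 4 of 4 animals. Of these 5, only Nolc1 also passed in young NSC. Taf1d and Utp20 differed by 0.07 each in old NSC and did not pass there. The difference between ages passed for both in the blocked fit (1.4% of 17177 tested genes higher), by 0.31 ± 0.07 for Taf1d and 0.25 ± 0.06 for Utp20 (adjusted p = 0.0288 and 0.0294). Without blocks no member passed this interaction in edgeR (7 at an unadjusted p under 0.05), nor in DESeq2. At 6 h of differentiation Dkc1, Nolc1 and Npm1 fell by 0.19, 0.13 and 0.12. Cycling markers were lower beside these genes in the blocked fits. They numbered 16 of 16 in young NSC (6.74% of tested genes), 15 in old NSC (7.01%) and 13 at 6 h of differentiation (1.98%). The share of counts in rRNA-overlapping features was 1.74 ± 0.152% in treated old NSC, against 0.999 ± 0.472% in untreated ones. Their part in the changes was not tested.

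**Figure D5:**
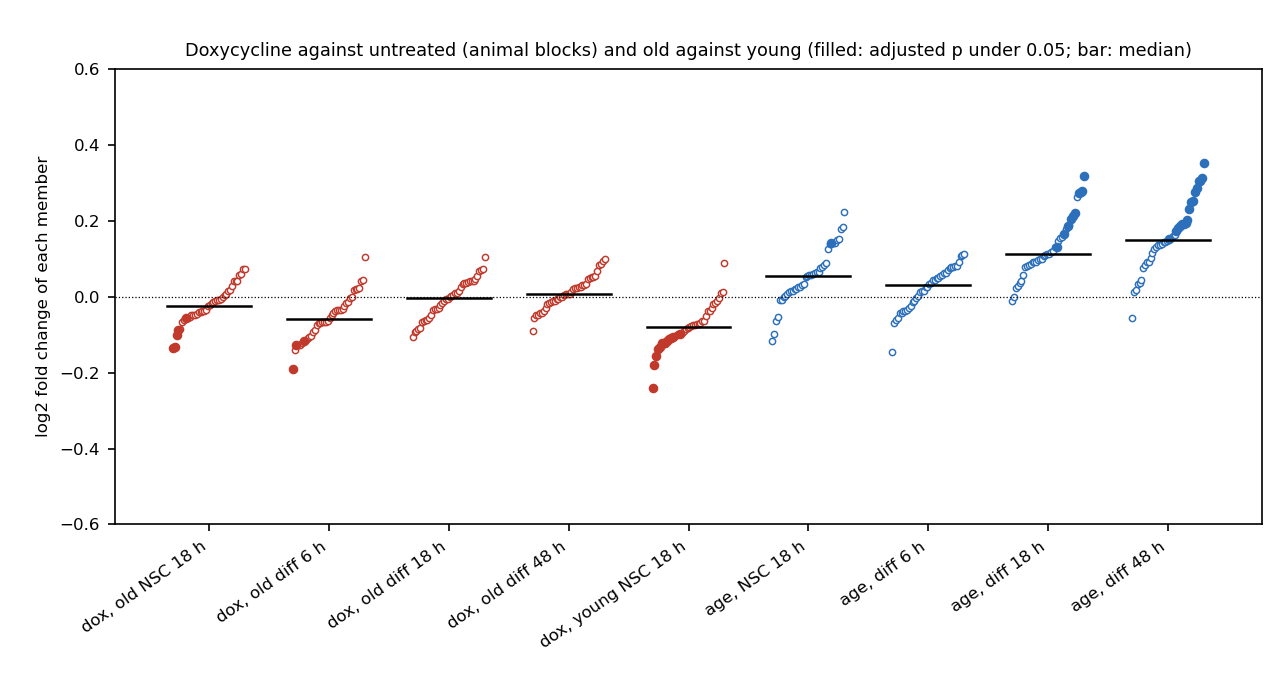
log2 fold change of each of 40 genes with doxycycline against untreated cells (red, fits with animal blocks) and in old against young untreated cells (blue), with filled points at an adjusted p under 0.05 and bars at the median. Doxycycline points stay between -0.24 and 0.10, and the age points move upward at 18 and 48 h of differentiation.

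The number of members that were higher in old cells was 1 in NSC, 0 at 6 h, 10 at 18 h and 17 at 48 h of differentiation in edgeR. In NSC at 18 h the members summed to 5259 ± 214 CPM in old cells, against 4939 ± 109 CPM in young cells, and 1 member, Srm, was higher and none lower (3.09% and 2.86% of 16701 tested genes). Srm was at 113, 120, 116 and 121 CPM in old cells, against 100, 109, 104, 107 and 107 CPM in young cells, without overlap (0.14 ± 0.03, adjusted p = 0.0325). It did not pass with sex as a covariate (adjusted p = 0.0552), and the count was 0 without old replicate 4 or without young replicate 1, 2 without young replicate 2 and 3 without young replicate 5. DESeq2 called 8 members higher, edgeR with library totals 7, edgeR with no filter 4 and limma 3, so the count of 1 depends on the method. The shares over all tested genes in these other fits are not given, so whether all genes rose alike is not known. At 6 h of differentiation no member passed (2 at an unadjusted p under 0.05, none in DESeq2), where 0.71% of 17192 tested genes were higher.

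At 18 h of differentiation 10 members were higher in old cells (2.85% of 16943 tested genes) and none lower. Srm was at 22.4, 22.2, 22.2 and 24.8 CPM in old cells, against 18.8, 19.7, 17.8, 17.5 and 19.2 CPM in young cells (0.32 ± 0.05, adjusted p = 0.00531). Rrs1 and Polr1b were higher by 0.28 each, Fbl by 0.27, Polr1a by 0.22 and Gnl3 by 0.21. The count fell to 1 without old replicate 3 or young replicate 1, to 4, 3 and 6 without old replicate 2, old replicate 4 and young replicate 3. The rRNA-overlapping share was 2.499 ± 0.360% in old and 1.76 ± 0.696% in young cells there, and its part was not tested.

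At 48 h 17 members were higher in old cells (5.63% of 17043 tested genes) and none lower, with a median of 0.15 over the 40, against 0.0007 over all genes tested. Rrs1 was at 42.9, 42.9, 46.4 and 46.7 CPM in old cells, against 34.1, 34.5, 35.4, 38.1 and 34.6 CPM in young cells, with no overlap (0.35 ± 0.05, adjusted p = 0.0026). Wdr12 was at 25.4, 25.2, 24.9 and 25.7 CPM, against 19.8, 21.8, 20.3, 19.2 and 21.6 CPM (0.31 ± 0.05, adjusted p = 0.00325), and Polr1b and Srm were higher by 0.31 each. Nop56 was higher by 0.29 and Gnl3 by 0.25. By role, 3 of 5 polymerase I genes, 4 of 7 snoRNP genes, 2 of 5 organisers, 5 of 12 large subunit genes, 2 of 10 small subunit genes and Srm passed. The count was 8 without old replicate 3 and 10 without old replicate 2, and 17 with sex as a covariate. Of 93 other pathway genes 9 were higher and none lower, and of 79 ribosomal protein genes 2 were higher. The oligodendrocyte lineage list summed to 6015 ± 516 CPM in old cells, against 4482 ± 490 CPM in young cells, at 48 h, and the stem cell and astrocyte list to 10267 ± 491 and 11811 ± 395 CPM. Their part in the difference was not tested.

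The change from NSC to 48 h of differentiation differed with age for 2 members (1.76% of 17797 tested genes were higher in this interaction). Polr1a was at 43.5, 47.0, 47.6 and 45.3 CPM at 48 h in old cells, against 109, 101, 101 and 110 CPM in old NSC. In young cells it was at 36.7, 39.99, 37.4, 39.2 and 37.9 CPM at 48 h, against 106, 105, 105, 103 and 101 CPM in NSC. It fell by 1.14 in old and 1.41 in young cells, a difference of 0.26 ± 0.05 (adjusted p = 0.012). Wdr12 fell by 0.66 in old and 0.94 in young cells, a difference of 0.28 ± 0.06 (adjusted p = 0.0177). Both passed in the main fit, and leaving out old replicate 2, old replicate 3 or young replicate 1 left no member past the threshold; 1 was left without old replicate 1 or young replicate 3, and without young replicate 5 the count was 3 higher and 1 lower. The interaction of doxycycline with medium at 18 h called no member in edgeR (3 at an unadjusted p under 0.05) and 1 in DESeq2.

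Over the 15 groups most members were close to one another, and many other genes shared their course. The Pearson correlation of a gene's group means with the mean course of the 40, to which each member itself contributes, was over 0.98 for 26 of them. Nop2 (0.999), Bysl (0.997) and Polr1e (0.997) led, and Npm1 (0.860) and Ubtf (0.678) were lowest. Nop56, the lowest of the 26 at 0.982, ranked only 240 among 11822 genes, so many genes that are not members were also over 0.98. Among 11822 genes averaging at least 5 CPM, the 6 other genes most like this course were Grwd1, Mak16, Naa15, Atic, Nsun2 and Nmd3, with correlations of 0.998 to 0.999 over 15 groups. Mak16 and Nmd3 are on the list of 93 other pathway genes, which holds 20 of the 100 most alike genes that are not members.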

How the data were processed

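Poly(A) RNA of 65 libraries was analysed. Per the submitters' processing notes, the tools named were STAR 2.7.10b, Trim Galore 0.6.6, DESeq2 1.40.1, Subread and SAMtools, and the build was mm10. The authors deposited whole-number counts per gene, not normalized, and a second table of log2 values, the variance-stabilised form of the counts. The strand setting of the counting is not given in the sources used here. The exons of several members overlap genes on the other strand (among them Polr1a, Taf1d, Nop56, Dkc1, Gnl3, Wdr43 and Wdr12). Whether reads of those genes were kept apart from the members is therefore not known.

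Counts were tested with edgeR 4.0.16 in R 4.3.3 (TMM scaling, low-count filter with a minimum count of 10, quasi-likelihood F test, Benjamini-Hochberg adjustment over all genes tested, threshold 0.05), in a fit of the groups compared. Standard errors were derived from the fold change and its F. Levels are CPM with TMM factors over the 65 libraries. The alternatives were DESeq2 1.42.0, limma 3.58.1 on the deposited log2 values, library totals, no filter, animal blocks, sex as a covariate, and each replicate left out. The steps were also run on simulated counts with assumed spreads, and no result here rests on that run. Replicates are animals.

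Same-numbered libraries come from the same animal within an age. In 18 comparisons within an age the lowest correlation of the deviations of an animal's libraries was 0.228 over 11822 genes, so animal blocks pair the samples. The members and all lists were chosen with earlier results of these data known. All 40 members may be named, and full statistics go to at most 4 called members per direction with the largest fold change and to the largest of each role. No library pair held identical values, and 46 features without a gene name were kept out of the named lists.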

Additional observations from a re-analysis of the deposited data

Results flagged for a closer look

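Of 270 sets of 4 or 5 libraries of 1 group, 19 held a library whose gap to the nearest other exceeded the 95% critical value of Dixon's test, and chance gives about 1 in 20. In old untreated NSC, replicate 4 summed to 5577 CPM over the 40 genes, against 5119 to 5172 CPM in the other libraries, with Fbl at 143.8 CPM (134.5 to 135.5) and Ncl at 1136 CPM (1020 to 1040). Its library at 6 h of differentiation summed to 2178 CPM (2074 to 2086), with Wdr12 at 16.93 CPM (13.84 to 14.28), and its library at 18 h held Srm at 24.83 CPM (22.18 to 22.38). Old replicate 3 at 18 h had Ubtf at 163.8 CPM (175.9 to 177.3) and Ddx21 at 81.15 CPM (73.06 to 73.87). Old replicate 2 had Rrp12 at 31.82 CPM in untreated NSC (35.65 to 36.39) and 75.11 CPM in doxycycline NSC at 6 h (85.6 to 86.77). The same animal had Taf1d at 18.98 CPM at 6 h (17.18 to 17.29) and 17.26 CPM at 48 h (20.39 to 20.75) of differentiation with doxycycline.

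In young cells, replicate 5 had Fbl at 108.1 CPM in doxycycline NSC (121.8 to 126.8). Replicate 4 had Ncl at 895.6 CPM in untreated NSC (944.2 to 963.5) and 441 CPM at 18 h of differentiation (404.7 to 413.7). Replicate 3 had Rrp12 at 33.57 CPM in untreated NSC (29.27 to 30.44), and at 6 h Rrp1b at 26.8 CPM (23.7 to 24.29) and Ddx21 at 60.26 CPM (48.59 to 50.36). Replicate 2 had Polr1b at 14.62 CPM at 18 h (12.42 to 13). The change between 48 h of differentiation and NSC differed between old and young cells, by the interaction term in edgeR, for Polr1a (0.2633, adjusted p = 0.012) and Wdr12 (0.2795, adjusted p = 0.0177).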

How the results depend on the processing

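Of 520 alternative values of the 50 counts of members, 488 stayed within 1.5 times the main count, 17 passed more members and 15 fewer. Of 1765 alternative values for single members, 1682 kept direction and side of the threshold, 37 passed newly, 38 no longer passed and 8 changed sign, none of the 8 from a called value. With animals as blocks, 1 member was lower at 48 h against 18 h in young cells, 13, 5 and 3 were lower with doxycycline in young NSC, old NSC and at 6 h of differentiation, and 2 were higher in the doxycycline by age interaction. No paired analysis was possible because different animals are compared for old against young cells. DESeq2 gave 3 lower with doxycycline in young NSC, 8 higher with age in NSC, 5 in the age by differentiation interaction and 1 in the doxycycline by medium interaction. For age in NSC, limma gave 3, library totals 7, no filter 4 and sex as a covariate 0. Apart from fits with animals as blocks, shares over all tested genes are not given for these alternatives or for those with a replicate left out.

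Leaving out 1 replicate gave 0 to 1 members lower at 48 h against 18 h in young cells and 0 to 5 lower with doxycycline in young NSC. For age it gave 0 to 3 higher in NSC, 1 to 10 at 18 h and 8 to 20 at 48 h of differentiation, and 0 to 3 higher and 0 to 1 lower in the age by differentiation interaction. Srm ran from -0.0329 to 0.0068 with doxycycline in young NSC, the positive value without young replicate 5, and from -0.0673 to 0.0015 at 6 h of differentiation, the positive value without old replicate 1. Taf1d ran from -0.0930 to 0.0079 with doxycycline at 48 h, the positive value without old replicate 2. Srm ran from -0.0714 to 0.1436 with age at 6 h, and was negative without old replicate 1 (-0.0407) or 3 (-0.0183) and without young replicate 1 (-0.0212), 2 (-0.0144) or 4 (-0.0714). The causes were not tested. At these depths no member was near the count minimum, and 4 or 5 animals per group set the precision.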
